A study of Mus musculus with 10 samples.

Results

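Prostaglandins, thromboxane and leukotrienes are signalling lipids made from arachidonic acid that membrane phospholipids release. Cyclooxygenases begin the prostanoid branch, whose products are finished by a synthase for each mediator, and 5-lipoxygenase with its activating protein begins the leukotriene branch. In the lung these lipids act on airway and vessel tone, on mucus and on leukocyte traffic. Omega-3 fatty acids from fish oil can replace arachidonic acid in membranes and compete with it for the same enzymes.

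The genes described here were 10 eicosanoid genes chosen by symbol out of the 24059 gene symbols in the table of counts. They were 3 genes of the 5-lipoxygenase branch (Alox5, Alox5ap and Ltc4s), the platelet-type 12-lipoxygenase Alox12, the cyclooxygenases Ptgs1 and Ptgs2, the terminal prostanoid synthases Ptgis, Ptges and Tbxas1, and the prostaglandin-degrading enzyme Hpgd. All 10 symbols were found, and each had at least 1 count in some mouse. The other 70 eicosanoid genes of 5 pathway lists were used as a background to them.

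The RNA came from whole lung of female C57Bl/6 mice, 14 weeks old by the labels, with 5 mice on the FO diet and 5 on the CO diet. By the labels, both diets were eaten for 8 weeks and held 19% fat and 0.2% cholesterol by weight. The study's listed diet composition, however, gives less cholesterol for the FO diet than for the CO diet. Menhaden fish oil gave 91% of the fat in the FO diet, whereas in the CO diet 78% was saturated coconut fat and 13% was olive oil. The other 9% was corn oil in both diets, and there was no group on ordinary chow. The study's methods give somewhat different shares for the fat of the CO diet. All mice went through airway reactivity testing before the lungs were flushed with saline and taken. Levels are given as CPM, counts per 1000000 after TMM scaling, which adjusts for differences in composition between libraries.

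The depth was low. The counts of a mouse summed to between 229766 and 1124963, but 21.8% to 87.0% of them fell on Rn45s, the ribosomal RNA precursor, and 45177 to 473254 were left for all other genes. With 3 counts set as the smallest signal of a mouse, the detection limit ran from 2.29 CPM in FO mouse 2 to 19.9 CPM in CO mouse 1. The median depth outside Rn45s was 235781 (FO) and 136211 (CO). FO mouse 2 and CO mouse 5 stood apart in Malat1, a nuclear RNA that took 8.53% and 6.15% of the counts outside Rn45s, against at most 1.05% in the other 8 mice. Of the alveolar type 2 cell markers, 7 of 7 were counted over the 10 mice, although Abca3, named after its values were seen, was at 0 in 3 mice. Their summed levels were 1649 to 3590 CPM (FO) and 1014 to 2852 CPM (CO), present in every mouse, so the lung label held. A gene at 0 in every mouse is called here only listed at 0, because Myh9 and Aqp5, which lung tissue is known to express, were also listed at 0 in all 10 mice. Those 2 genes were chosen after their values were seen.

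Hpgd, the dehydrogenase that begins the inactivation of prostaglandins, was the one member present in quantity. It took 1925 of the 2214 counts on the 10 members, or 86.9%, and between 79.9% and 92.9% of them within single mice. The other 9 members, all of which act in synthesis, shared 289 counts over 10 mice. In single mice between 6 and 10 of the 10 members had a count, but only 0 to 5 of the 9 synthesis members had more than 3 counts. Hpgd alone exceeded 3 counts in all 10 mice, whereas Ptgis did so in 7, Alox5ap and Ptgs1 in 5 each, Alox5 in 4, and Ltc4s and Ptgs2 in 1 each. Alox12, Ptges and Tbxas1 never exceeded 3 counts, so no fold between diets is given for them.

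**Figure D1:**
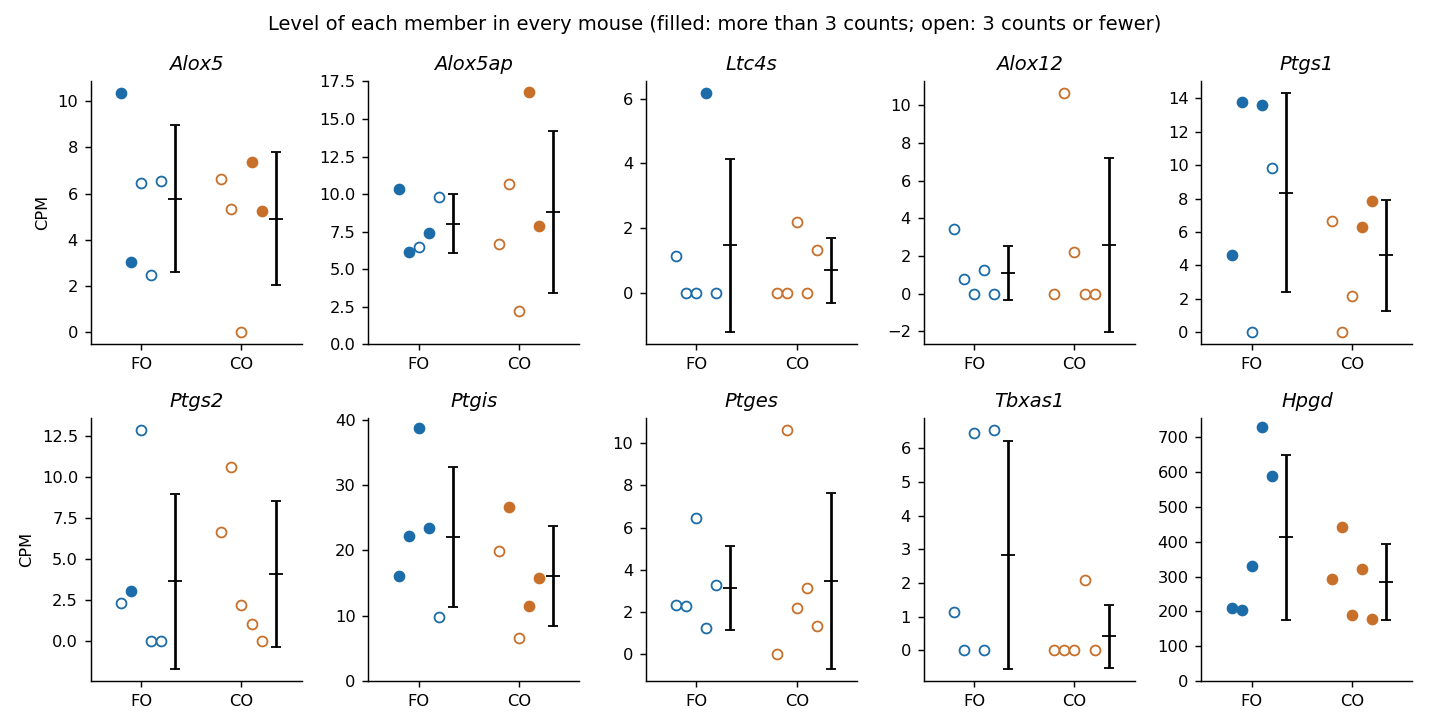
Level of each of the 10 members by mouse (y axis, CPM on a linear scale of its own for each gene) in the FO and CO groups, with the mean and SD of 5 mice per diet as the bar and whiskers. Filled points had more than 3 counts and open points 3 or fewer. The groups overlap for all 10 genes, and Hpgd runs between 177 and 729 CPM while the means of the other 9 lie at or under 22.1 CPM.

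Divided by the length of the longest annotated transcript, the levels also put Hpgd far above the rest, with 207 ± 110 CPM per kb (SD, n = 10 mice). Prostacyclin synthase, Ptgis, followed with 9.05 ± 4.45 CPM per kb and was below Hpgd in 10 of 10 mice, by 22.9-fold between the means. Alox5ap was the third with 6.74 ± 3.08 CPM per kb, a level below that of Ptgis in 7 of 10 mice, so the order of these neighbours lay within their spread. Next was Ptgs1 with 2.26 ± 1.73 CPM per kb, below Alox5ap in 10 of 10 mice. The levels of Ltc4s (1.51 ± 2.73 CPM per kb), Alox5 (1.49 ± 0.810), Ptges (0.901 ± 0.849), Ptgs2 (0.871 ± 1.04), Alox12 (0.610 ± 1.104) and Tbxas1 (0.356 ± 0.584) overlapped. Their order rests on 0 to 9 counts a mouse, and with all exons merged as the length Ltc4s changed places with Alox5, and Ptges with Ptgs2.

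**Figure D2:**
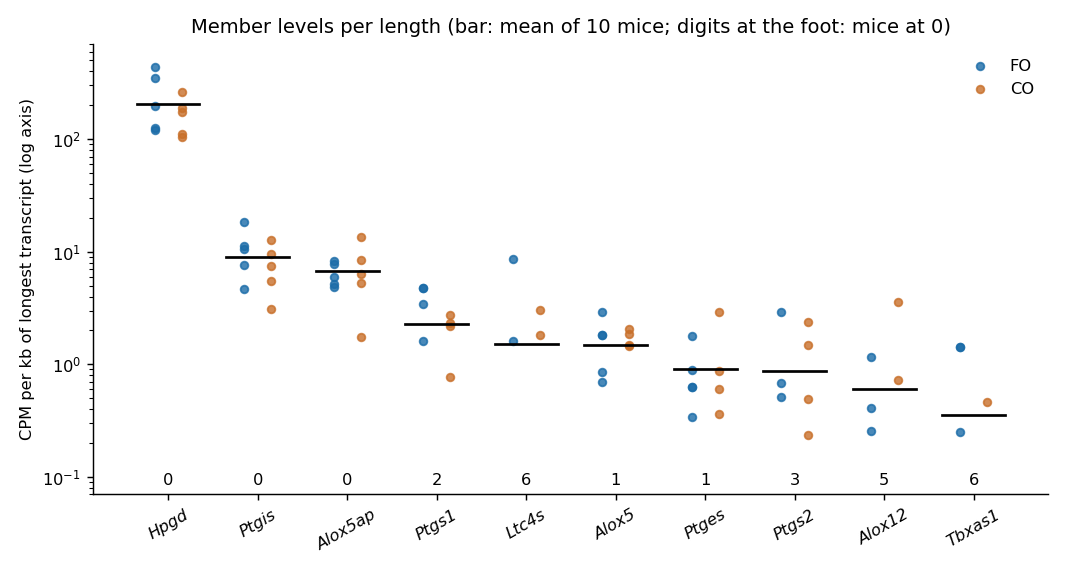
Level per kb of transcript of the 10 members, ordered by mean (CPM per kb on a log axis), 1 point per mouse with a count, a bar for the mean over 10 mice and, at the foot, the number of mice at 0. Hpgd, at 207 CPM per kb on average, stands apart from Ptgis at 9.05, and the lower 6 genes overlap.

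The comparison between diets asked whether fish oil, against saturated fat, went with different RNA levels of these enzymes. Of the 2438 genes that passed edgeR's default filter on low counts, 71 or 2.91% were called at an unadjusted p-value under 0.05 in edgeR's quasi-likelihood test. Hpgd was the only member to pass that filter, and it was not called (0 of 1 member). In the same test on all 14161 genes with any count, 587 genes were called, or 4.15%, of which 365 (2.58%) were higher in the FO group. There 1 of 10 members was called, Hpgd, which was higher in the FO group. That count of 1 in 10 rests on 1 gene. No member had FO and CO values that did not overlap, against 0.35% of the genes with any count. Among the 7 members with over 3 counts in some mouse, 6 had a positive and 1 a negative log2 fold change, with a median of 0.56, whereas 54.5% of all 9972 such genes were positive, with a median of 0.05. Ltc4s and Ptgs2 passed that limit in 1 FO mouse each and in 0 CO mice, and the FO libraries were deeper at the median. The log2 fold changes of these 2 genes were 0.98 and 0.06. The part of the limit itself in the lean among the 7 was not tested. Over all 10 members 8 were positive and 2 negative, with a median of 0.35. None of the members had an adjusted p-value (Benjamini-Hochberg) under 0.05 in either edgeR fit.

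**Figure D3:**
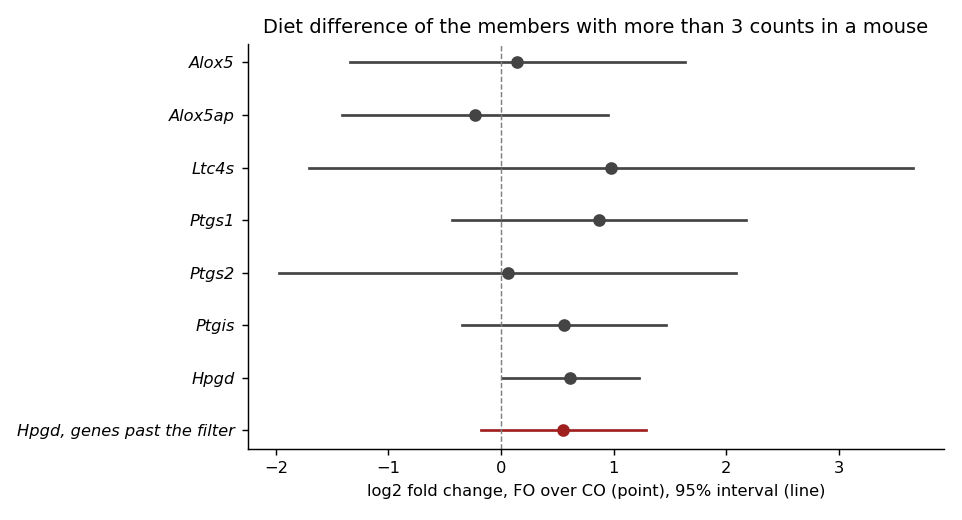
Log2 fold change of FO against CO (x axis) with its 95% interval for the 7 members that had over 3 counts in some mouse, from the edgeR fit of genes with any count, and for Hpgd also from the fit after the default filter. Apart from Hpgd in the fit of genes with any count, whose interval starts just above 0, every interval spans 0, and those of the sparse genes Ltc4s and Ptgs2 are the widest.

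Alox5, the 5-lipoxygenase that makes the leukotriene precursor, had 9, 4, 1, 2 and 2 counts in FO mice 1 to 5 and 1, 1, 0, 7 and 4 counts in CO mice 1 to 5. The high counts were in FO mouse 1 and CO mouse 4, and the groups overlapped. Its mean level was 5.78 ± 3.18 CPM (SD, n = 5) in the FO mice and 4.91 ± 2.89 CPM (n = 5) in the CO group (two-sided exact permutation test, p = 0.635). The log2 fold change in the edgeR fit of genes with any count was 0.15 (95% interval -1.35 to 1.64, unadjusted p = 0.844), so changes of up to 3.11-fold upward or down to 0.393 of the CO level lie within the interval.

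Alox5ap encodes FLAP, the membrane protein that presents arachidonic acid to 5-lipoxygenase. Its counts were 9, 8, 1, 6 and 3 in FO mice 1 to 5 and 1, 2, 1, 16 and 6 in CO mice 1 to 5. After scaling, CO mouse 4 was the highest at 16.8 CPM and CO mouse 3 the lowest at 2.19 CPM, and all FO mice lay between them. The means were 8.03 ± 1.95 CPM in the FO mice and 8.83 ± 5.40 CPM in the CO group (exact permutation test, p = 0.746), and the log2 fold change was -0.23 (95% interval -1.41 to 0.95, edgeR, unadjusted p = 0.687). This interval runs from 0.375 to 1.93 times the CO level.

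Ltc4s, the enzyme that joins glutathione to leukotriene A4 and so begins the cysteinyl leukotrienes, was at the limit of detection. The FO mice had 1, 0, 0, 5 and 0 counts and the CO mice 0, 0, 1, 0 and 1. FO mouse 4 alone held 5 of the 8 counts. The depth-adjusted ratio of the summed counts, 6 in FO and 2 in CO, was 2.18 with a counting interval of 0.390 to 22.1, and the mean levels of 1.47 ± 2.68 and 0.701 ± 1.01 CPM differed by less than their SDs (exact permutation test, p = 0.881).

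Summed over Alox5, Alox5ap and Ltc4s, the 5-lipoxygenase branch had 92 counts in 10 mice. The sum was 15.3 ± 4.69 CPM in the FO mice, from 9.17 to 21.9 CPM, and 14.4 ± 7.05 CPM in the CO group, from 4.38 to 24.1 CPM. The branch is known from myeloid cells, and whole-lung RNA cannot tell apart fewer cells of a type from less RNA per cell. The neutrophil markers, 11 of 11 of which were counted, summed to 66.5 to 318.8 CPM in the FO mice and 39.9 to 59.1 CPM in the CO mice, without overlap. S100a8 and S100a9, the most counted, held 218 and 275 of their 669 counts. Of the 11 only S100a9 did not overlap by itself. In the fit of genes with any count 6 of the 11 were called higher, against 2.58% of all genes, while Ltf had a negative log2 fold change. S100a8 and S100a9 had log2 fold changes of 1.62 (edgeR, adjusted p = 0.149) and 2.27 (adjusted p = 1.99e-05) in that fit. The other 4 called were Retnlg, Mmp8, Ngp and Camp. Ngp and Camp, with 5 and 4 counts in all and no count in the CO mice, never exceeded 3 counts in a mouse, and Mmp8 did so in 1. Macrophage and monocyte markers, with 11 of the 13 listed symbols counted and Ly6c2 at 0, summed to 246.2 to 561.3 CPM (FO) and 99.7 to 459.4 CPM (CO), which overlapped. Of the 11 counted, 1 (Cd68) was called higher in the FO mice in the same fit, against 2.58% of all genes. The most counted, Lyz2 and Mrc1, were not called. Among mast cell markers 5 of 8 were counted and Tpsb2, Ms4a2 and Fcer1a were listed at 0. Their sum was 6.45 to 45.8 CPM (FO) and 17.1 to 48.2 CPM (CO), and 0 of the 5 were called. The part of these cells in the levels of Alox5, Alox5ap and Ltc4s was not tested.

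Alox12, the platelet-type lipoxygenase that makes 12-hydroxy fatty acids, had 3, 1, 0, 1 and 0 counts in the FO mice and 0, 2, 1, 0 and 0 counts in the CO mice. No count was found in 5 mice. The summed 5 FO counts carry a 95% exact Poisson interval of 1.62 to 11.7 counts and the 3 CO counts one of 0.619 to 8.77, and intervals and detection limits here cover counting error only. The means were 1.09 ± 1.42 CPM (FO) and 2.57 ± 4.62 CPM (CO), below the detection limit of most mice (exact permutation test, p = 0.722). All 9 platelet markers were counted, with sums of 33.6 to 81.9 CPM (FO) and 11.8 to 53.2 CPM (CO). Of the 9, 2 (Clec1b and Gp9) were called higher in the FO group in the fit of genes with any count, against 2.58% of all genes. Gp9 rests on 6 counts, all in FO mice and none over 3 in a mouse. Pf4 and Ppbp, the most counted, were not called. Their part in Alox12, Ptgs1 or Tbxas1, which platelets also use, was not tested.

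Ptgs1, the constitutive cyclooxygenase COX-1, had 4, 18, 0, 11 and 3 counts in FO mice 1 to 5 and 1, 0, 1, 6 and 6 counts in CO mice 1 to 5. FO mice 2, 4 and 5 were above every CO mouse after scaling, at 13.8, 13.6 and 9.82 CPM, whereas FO mouse 3, which had the lowest depth of its group, had no count. The means were 8.35 ± 5.97 CPM in the FO mice and 4.60 ± 3.35 CPM in the CO group, a difference within the spread between mice (exact permutation test, p = 0.270). The log2 fold change was 0.87 (95% interval -0.44 to 2.18, edgeR, unadjusted p = 0.165, adjusted p = 0.905).

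Ptgs2, the inducible cyclooxygenase COX-2, was much sparser. It had 2, 4, 2, 0 and 0 counts in the FO mice and 1, 2, 1, 1 and 0 counts in the CO mice. Only FO mouse 2, the most deeply sequenced, exceeded 3 counts. The means were 3.65 ± 5.35 and 4.11 ± 4.45 CPM in the FO and CO groups (exact permutation test, p = 0.897), and the log2 fold change of 0.06 had a 95% interval of -1.97 to 2.09 (edgeR, unadjusted p = 0.944). Changes of up to 4.25-fold upward or down to 0.255 of the CO level lie within that interval. Together, Ptgs1 and Ptgs2 summed to 12.0 ± 3.78 CPM (FO) and 8.71 ± 3.39 CPM (CO).

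Ptgis, prostacyclin synthase, makes the vasodilator prostacyclin and is known from endothelium and smooth muscle. Its counts were 14, 29, 6, 19 and 3 in FO mice 1 to 5 and 3, 5, 3, 11 and 12 in CO mice 1 to 5. The highest level was in FO mouse 3 with 38.7 CPM, which rests on 6 counts, and the other FO mice lay among the CO mice. The mean was 22.1 ± 10.8 CPM in the FO mice and 16.1 ± 7.70 CPM in the CO group (exact permutation test, p = 0.349), with a log2 fold change of 0.56 (95% interval -0.35 to 1.47, edgeR, unadjusted p = 0.221). The 8 endothelial markers summed to 220.9 to 463.1 CPM (FO) and 265.8 to 418.7 CPM (CO), and the 6 smooth muscle markers to 93.2 to 341.6 CPM (FO) and 95.5 to 186.4 CPM (CO). Both lists overlapped between the diets, and of the endothelial list, led by Pecam1 and Kdr, 0 genes were called in the fit of genes with any count. Of the 6 smooth muscle markers 2 were called higher in the FO mice there, against 2.58% of all genes. They were the contractile genes Myh11 (edgeR, unadjusted p = 0.00318) and Acta2 (unadjusted p = 0.0123). FO mouse 2 alone held 224 of the 283 FO counts of Myh11. The median level of Myh11 was 25.8 CPM (FO) and 26.6 CPM (CO), with an exact permutation p of 0.635. Acta2 was also called after the default filter (log2 fold change 0.99, edgeR, unadjusted p = 0.0144). The part of these cells in the level of Ptgis was not tested.

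Ptges, the inducible microsomal prostaglandin E synthase, had 2, 3, 1, 1 and 1 counts in the FO mice and 0, 2, 1, 3 and 1 counts in the CO mice. It was counted in 9 of 10 mice without exceeding 3 counts in any, and the means of 3.11 ± 2.00 CPM (FO) and 3.46 ± 4.18 CPM (CO) differed by less than their SDs (exact permutation test, p = 0.929). The summed counts of 8 and 7 have exact Poisson intervals of 3.45 to 15.8 and 2.81 to 14.4.

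Tbxas1, thromboxane A synthase, whose product constricts airways and vessels and activates platelets, had 1, 0, 1, 0 and 2 counts in the FO mice and 0, 0, 0, 2 and 0 counts in the CO mice. With 4 and 2 counts in all, a difference between the diets was not detectable at this depth. The means were 2.83 ± 3.38 CPM (FO) and 0.420 ± 0.939 CPM (CO), and the exact permutation p was 0.286. The 3 terminal synthases Ptgis, Ptges and Tbxas1 summed to 28.0 ± 13.4 CPM (FO) and 20.0 ± 10.5 CPM (CO), mostly from Ptgis. All 9 synthesis members summed to 56.4 ± 12.3 CPM (FO) and 45.7 ± 19.7 CPM (CO), with ranges of 45.8 to 77.4 and 19.7 to 74.6 CPM.

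**Figure D4:**
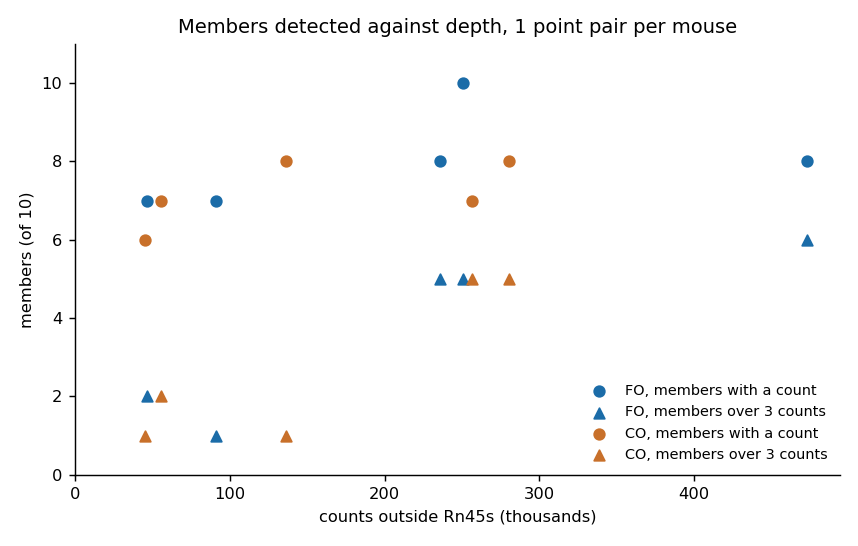
Number of members with a count and with more than 3 counts in each of the 10 mice (y axis, genes) against the counts outside Rn45s (x axis, in units of 1000 counts). The 5 mice with at least 235781 such counts have 5 or 6 members over 3 counts, Hpgd included, and the other 5 mice have 1 or 2.

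Hpgd had 183, 267, 51, 590 and 180 counts in FO mice 1 to 5 and 44, 83, 86, 306 and 135 counts in CO mice 1 to 5. As levels these were 210.6, 204.0, 329.0, 728.8 and 589.4 CPM in the FO mice and 292.4, 442.1, 188.4, 321.2 and 177.2 CPM in the CO mice. FO mice 4 and 5 were above every CO mouse, and the 3 other FO mice lay among the CO mice. The exact Poisson interval of FO mouse 4 was 671 to 790 CPM and that of CO mouse 2, the highest of its group, was 352 to 548 CPM and these did not overlap. The interval of FO mouse 5, 506 to 682 CPM, did overlap that of CO mouse 2. The mean was 412.4 ± 235.9 CPM in the FO mice and 284.3 ± 108.4 CPM in the CO group, a difference smaller than the SD of the FO mice (two-sided exact permutation test, p = 0.286, where 5 against 5 mice can reach 0.00794 at the lowest).

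The edgeR call of Hpgd differed between the fits. After the default filter the log2 fold change was 0.55 ± 0.35 (SE, 95% interval -0.18 to 1.29, unadjusted p = 0.132, adjusted p = 0.998). With all genes that had any count it was 0.62 ± 0.31 (SE, unadjusted p = 0.0261, adjusted p = 0.905), with a 95% interval of 1.003 to 2.34-fold. With those genes but the scaling of the default fit, an alternative chosen after seeing the data, it was 0.55 (edgeR, unadjusted p = 0.0351). That estimate equalled the one after the default filter to 2 digits, and Hpgd was still called. On those same genes DESeq2 gave 0.56 (unadjusted p = 0.121) and limma-voom 0.55 (unadjusted p = 0.0624), and neither called it. The edgeR call on those genes was lost without FO mouse 4 (log2 fold change 0.27, edgeR, unadjusted p = 0.372), FO mouse 5 (0.49, unadjusted p = 0.0958), CO mouse 3 (0.53, unadjusted p = 0.0796) or CO mouse 5 (0.51, unadjusted p = 0.0772). After the default filter, on the other hand, Hpgd was called without FO mouse 2 (log2 fold change 0.74, edgeR, unadjusted p = 0.0332).

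**Figure D5:**
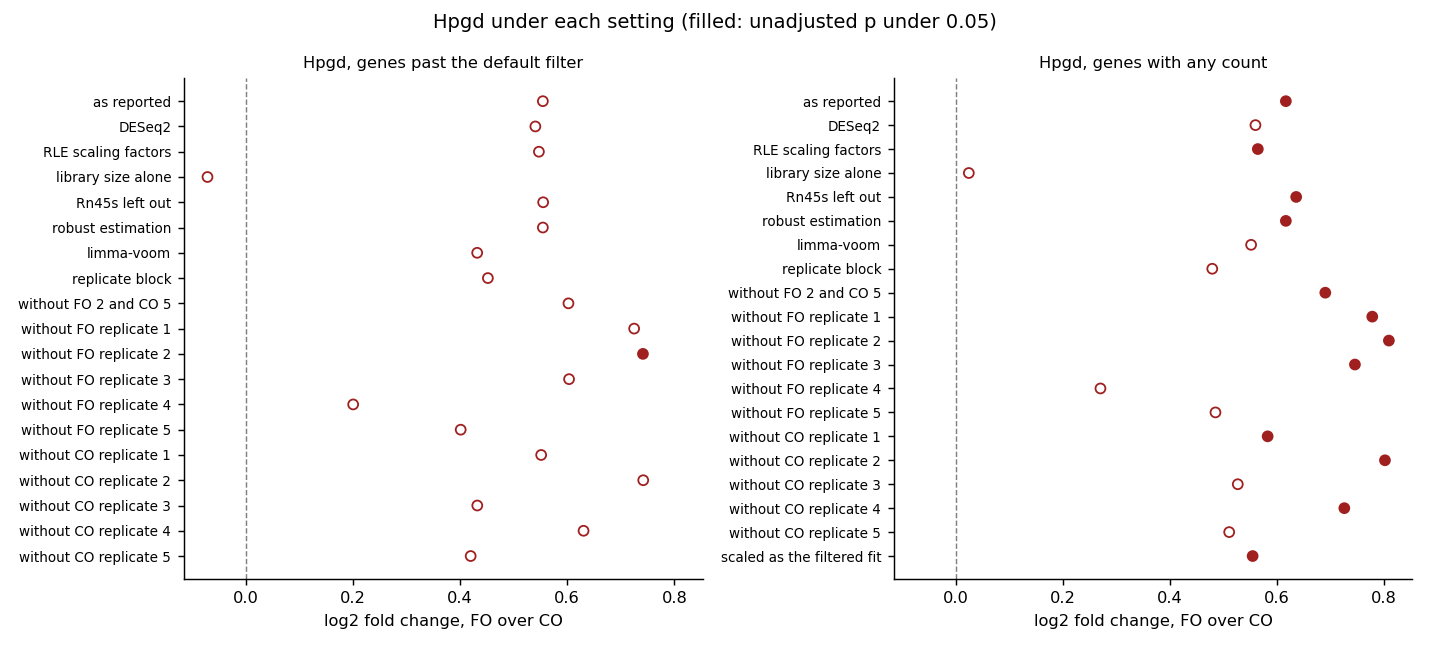
Log2 fold change of Hpgd, FO against CO (x axis), under each alternative processing and with each mouse left out, for the fit after the default filter (left) and the fit of genes with any count (right). Values run from -0.07 with library size alone to 0.81, and filled points mark an unadjusted p under 0.05.

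The mice that stood apart in Malat1, FO mouse 2 and CO mouse 5, were also the lowest of their groups for Hpgd. Their exact Poisson intervals, 180 to 230 CPM and 149 to 210 CPM, however, included the next lowest mice. These were FO mouse 1 at 210.6 CPM and CO mouse 3 at 188.4 CPM, with Malat1 shares of only 0.93% and 1.05%. FO mouse 2 and CO mouse 5 had the highest summed level of alveolar type 2 markers in their groups, 3590 CPM and 2852 CPM. With both left out, the log2 fold change of Hpgd was 0.60 (edgeR, unadjusted p = 0.0785) after the default filter and 0.69 (unadjusted p = 0.0106) in the fit of genes with any count. Scaling by library size alone took the difference away (-0.07, edgeR, unadjusted p = 0.911), and it also moved the median gene by -0.55, so that the value of Hpgd still lay above that of the median gene. The part of either library's composition in the level of Hpgd was not tested.

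The ratio of Hpgd to Ptgis, the 2 members with the most counts, ran from 8.50 to 60.0 in the FO mice and from 11.2 to 28.7 in the CO mice, and the values overlapped. The highest ratio, in FO mouse 5, rests on 3 counts of Ptgis.

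Among the other eicosanoid genes no call was made in either edgeR fit. Of 70 genes, 48 had a count, 22 were listed at 0 in all mice and 25 exceeded 3 counts in some mouse. Only 4 passed the default filter and 0 of them were called. In the edgeR fit of genes with any count, 0 of 48 were called at an unadjusted p under 0.05, with 24 positive and 24 negative log2 fold changes and a median of 0.06, against 4.15% called and a median of 0.05 over all genes tested. On these 48 genes DESeq2 and limma-voom also called 0, whereas RLE factors, library size alone, the replicate block, the scaling of the default fit and leaving out both libraries high in Malat1 called 1 or 2, and fits with a mouse left out called 0 to 4.

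Among 17 genes that release or remodel arachidonic acid, 8 had a count. Mgll, the monoacylglycerol lipase, was counted 12 to 108 times in the FO mice and 8 to 99 times in the CO mice, with 69.8 ± 18.3 and 82.4 ± 19.9 CPM and a log2 fold change of -0.25 (edgeR after the default filter, unadjusted p = 0.337). Pla2g12a, a secreted phospholipase, had 13.5 ± 7.87 and 9.16 ± 5.88 CPM (exact permutation test, p = 0.389).

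Of 12 other leukotriene and lipoxygenase genes, 7 had a count. Lta4h, the hydrolase that makes leukotriene B4, had 30, 45, 6, 24 and 13 counts in FO mice 1 to 5 and 3, 7, 17, 17 and 20 counts in CO mice 1 to 5. It was therefore better covered than any member of the 5-lipoxygenase branch. Its mean was 36.0 ± 4.89 CPM in the FO mice and 27.7 ± 9.25 CPM in the CO group, with 2 FO mice above every CO mouse, and its log2 fold change was 0.38 (95% interval -0.38 to 1.14, edgeR, unadjusted p = 0.216). Dpep1, a dipeptidase that acts on leukotriene D4, had 25.0 ± 5.75 and 17.7 ± 10.1 CPM (exact permutation test, p = 0.183).

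Of 13 further prostanoid enzymes and transporters, 11 had a count. Cbr2, a lung carbonyl reductase, had 158 ± 45.2 CPM (FO) and 139 ± 43.4 CPM (CO), with a log2 fold change of 0.17 (edgeR, unadjusted p = 0.573). Ptges3, the cytosolic prostaglandin E synthase that is also the HSP90 co-chaperone p23, had 74.1 ± 27.0 and 61.9 ± 10.3 CPM with a log2 fold change of 0.14 (edgeR, unadjusted p = 0.613). Fam213b, a prostamide and prostaglandin F synthase named after its values were seen, came nearest to a call of the 48 genes. It had 4, 7, 0, 3 and 0 counts in the FO mice and 2, 4, 0, 8 and 10 counts in the CO mice, with a log2 fold change of -1.29 (95% interval -2.68 to 0.09, edgeR, unadjusted p = 0.0537). It was called lower in the FO mice in 6 of 19 alternative settings, with log2 fold changes of -1.34 to -1.81: RLE factors, library size alone, the replicate block, the scaling of the default fit, and without FO mouse 2 or CO mouse 3.

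The receptors had few counts. Of 15 prostanoid and leukotriene receptors 10 had a count, but 3 exceeded 3 counts in any mouse and 0 passed the default filter. Ptgfr, the prostaglandin F receptor, had 47 counts in all and means of 5.51 ± 3.89 CPM (FO) and 6.79 ± 5.12 CPM (CO), and Ptger1, a prostaglandin E receptor, had 37 counts and means of 7.37 ± 4.24 and 7.83 ± 6.32 CPM. Exact permutation tests gave p = 0.714 for Ptgfr and p = 0.889 for Ptger1. Tbxa2r, Ptger4 and Ptgdr2, named after their values were seen, were listed at 0 in all mice.

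Of 13 genes of the epoxygenase branch and receptors for omega-3 mediators, 12 had a count. Cmklr1, a receptor for chemerin and resolvin E1, was over 3 counts in 10 of 10 mice, with 21.3 ± 6.48 CPM (FO) and 23.9 ± 13.6 CPM (CO) and an exact permutation p of 0.778. Ephx1, the microsomal epoxide hydrolase, had 6.33 ± 5.37 and 10.5 ± 12.4 CPM (exact permutation test, p = 0.683).

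On GRCm38, the build that mm10 names, the members lie on 6 chromosomes by the GENCODE annotation. Ptgis, Ptges and Ptgs1 share chromosome 2, Alox5 and Tbxas1 chromosome 6, and Ltc4s and Alox12 chromosome 11, whereas Ptgs2 lies on chromosome 1, Alox5ap on chromosome 5 and Hpgd on chromosome 8. Hpgd spans chr8:56294585-56321043 on the plus strand, with no exon shared with another annotated gene. Exons of Alox5ap, Ltc4s, Ptgis, Ptgs1 and Tbxas1 overlap those of a gene on the opposite strand (Gm19719, Gm26542, 1110018N20Rik, Gm43621 and Gm42962). The strand setting and annotation of the counting are not given in the sources used here, so how reads on these overlaps were counted is not known.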

How the data were processed

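Reads were counted on each gene in 10 lung RNA libraries, 1 per mouse. Per the labels and the study's methods, the authors made single-end TruSeq RNA v2 or riboZero libraries, aligned reads to mm10 with STAR 2.4.0f1 and counted them with htseq-count, and they deposited raw counts per gene symbol without normalization. SAMtools 0.1.19 is also named in the submitters' processing notes. The kit of each mouse, the annotation and the strand setting are not given in the sources used here.

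The quasi-likelihood test of edgeR 4.0.16 (R 4.3.3) was applied to the counts after TMM scaling. The default filter (minimum count 10, minimum total 15) left 2438 genes. A second fit used all 14161 genes with any count. Genes were called at an unadjusted p under 0.05, the study's threshold. Benjamini-Hochberg adjustment ran over all genes of a fit. CPM used the effective library sizes of the default fit. Standard errors and intervals (95%) come from the fit, with the quasi-dispersion taken as at least 1. No fold is given where no mouse exceeded 3 counts. Single levels were tested with exact permutation tests, not adjusted over the members. Lengths and positions come from GENCODE M21. Scripts were tested on simulated data.

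The members, the pathway and marker lists and the tests were chosen with earlier results of these data known. Named genes are all members, the 2 most counted genes of each pathway and marker list, called pathway genes (at most 4 per list), and markers called after the default filter. Other called markers (Retnlg, Mmp8, Ngp, Camp, Clec1b, Gp9, Cd68 and Tnni3) and genes marked in the text were named after their values were seen. The most counted mast cell markers were Hdc and Kit, and those of alveolar type 2 cells Sftpc and Sftpa1. Cardiac markers (8 of 8 counted) summed to 58.9 to 241.5 CPM (FO) and 26.6 to 166.7 CPM (CO), led by Myh6. Of the 8, 2 (Tnnt2 and Tnni3) were called higher in the FO mice in the fit of genes with any count, against 2.58% of all genes. For Tnnt2, 66 of its 99 FO counts came from 1 mouse. Exact permutation tests gave p = 0.214 for Tnnt2 and p = 0.0238 for Tnni3. Of 7 erythroid markers only Alas2 was counted (41.4 to 65.5 and 2.10 to 76.7 CPM), and it was called higher in the FO mice in that fit (log2 fold change 0.99, edgeR, unadjusted p = 0.00623). Alternatives were DESeq2 1.42.0, RLE factors, library size alone, Rn45s left out, robust estimation, limma-voom (limma 3.58.1), the replicate number as a block, both libraries high in Malat1 left out, and each mouse left out. A fit of genes with any count that used the default fit's effective library sizes was added after seeing the data.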

Additional observations from a re-analysis of the deposited data

Results flagged for a closer look

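In 8 of 40 groups of 5 mice 1 value stood far from the other 4 (Dixon's criterion, critical ratio 0.71). The rate of about 1 in 20 groups by chance holds for normal values and not for counts this low, so no chance number is set against the 8, and most rest on few counts. CO mouse 3 had 0 CPM of Alox5, against 5.25 to 7.35 CPM in the other CO mice. CO mouse 2 had 10.7 CPM of Alox12 from 2 counts and 32.0 CPM of Ephx1 from 6 counts. FO mouse 4 had 6.18 CPM of Ltc4s from 5 counts, and FO mouse 3 had 12.9 CPM of Ptgs2 from 2 counts. CO mouse 4 had 2.10 CPM of Tbxas1 from 2 counts, with the other CO mice at 0. CO mouse 5, one of the mice high in Malat1, had 35.4 CPM of Dpep1 (others 10.7 to 15.3 CPM) and 64.3 CPM of Cbr2 (others 139.6 to 168.7 CPM). The cause of these values was not tested.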

How the results depend on the processing

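Depth limited most of these results: the default filter kept 1 of 10 members and 4 of 70 pathway genes, and intervals of the sparse members span several-fold changes. Of the log2 fold changes, 285 values under alternatives kept their direction and side of the threshold and 46 changed sign, none of the latter for a called value. With the default filter, 0 members were called in each alternative except the fit without FO mouse 2 (0 to 1 with a mouse left out), and 0 pathway genes in each. In the fit of genes with any count, the 1 member called was 0 with DESeq2, library size alone, limma-voom and the replicate block, and 0 to 1 with a mouse left out. Pathway genes called there were 1 with RLE factors, 2 with library size alone, 1 with the replicate block, 1 without both libraries high in Malat1, 1 with the added scaling, and 0 to 4 with a mouse left out, the 4 without CO mouse 5. Fam213b was the gene called in 6 of these 19 settings, lower in the FO mice each time. Without both libraries Dpep1 had a log2 fold change of 1.02 (edgeR, unadjusted p = 0.0312). The log2 fold change of Hpgd after the default filter was -0.071 with library size alone, 0.62 with any count, and 0.20 to 0.74 with a mouse left out. In the fit of genes with any count it was 0.56 with DESeq2, 0.025 with library size alone, 0.55 with limma-voom, 0.48 with the replicate block, 0.55 with the added scaling and 0.27 to 0.81 with a mouse left out. Without Rn45s 3484 genes passed the filter and Ptgis joined Hpgd there (log2 fold change 0.54, edgeR, unadjusted p = 0.191).

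Uncalled genes changed sign as follows. Library size alone gave -0.40 for Alox5, -0.25 for Ptgs2, -0.28 for Pla2g12a, -0.016 for Lta4h, -0.16 for Dpep1, -0.47 for Cbr2 and -0.49 for Ptges3, and it moved the median gene by -0.55 after the default filter and -0.43 with any count. Limma-voom gave 0.19 for Alox5ap, -0.11 for Ltc4s, -0.58 for Ptgs2, -0.040 for Ptges3 and 0.38 for Ptger1. DESeq2 gave -0.17 for Ptgs2. Without Rn45s Ptger1 was 0.0019 and Cmklr1 0.0083. Without both libraries high in Malat1 Ptgs2 was -0.59, Ptgfr 0.11, Ptger1 0.91 and Cmklr1 0.28. With a mouse left out the log2 fold changes ran from -0.36 to 0.55 for Alox5, -0.45 to 0.38 for Alox5ap, -0.73 to 1.58 for Ltc4s, -0.40 to 0.73 for Ptgs2, -0.038 to 0.34 for Cbr2, -0.037 to 0.27 for Ptges3, -0.41 to 0.37 for Ptgfr, -0.38 to 0.74 for Ptger1, -0.25 to 0.16 for Cmklr1 and -0.54 to 0.34 for Ephx1. The CPM differences ran from -0.37 to 1.69 for Alox5, -2.46 to 1.19 for Alox5ap, -2.12 to 0.54 for Alox12, -0.41 to 1.14 for Ltc4s, -2.77 to 1.18 for Ptgs2 and -1.22 to 1.45 for Ptges. On the log2 CPM scale with a prior count of 2 the differences were 0.0078 for Alox5ap and 0.054 for Ptges. The cause of these changes was not tested.

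The replicate numbers gave no sign of pairing between the mice. The deviations of same-numbered mice had a mean correlation of -0.12 (-0.41 to 0.03 over 5 pairs), against 0.03 for other pairs, and 0 mice matched their own number best. With the replicate block 55 of 2438 genes were called, Hpgd was 0.45 (edgeR, unadjusted p = 0.247) after the default filter and 0.48 (unadjusted p = 0.128) with any count, Alox5 was -0.0075, Ptgs2 -0.50 and Cmklr1 0.036.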
